A study of Mus musculus with 34 samples.

Results

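Perineuronal nets are lattices of extracellular matrix that wrap the cell body and proximal dendrites of certain neurons, in the cortex above all fast-spiking parvalbumin (PV) interneurons. Hyaluronan forms the backbone, lecticans (aggrecan, brevican, neurocan and versican) bind it, link proteins of the Hapln family lock the bond, and the trimeric glycoprotein tenascin-R ties lectican cores together. Metalloproteases of the ADAMTS family cut the lectican cores. The 9 genes described here were chosen by symbol for these roles: the lecticans Acan, Bcan, Ncan and Vcan, the link proteins Hapln1 and Hapln4, the tenascin Tnr, and the proteases Adamts1 and Adamts15. The choice was made with earlier results of these data known. All 9 were listed in each of the deposited tables, the largest of which held 53465 genes, and all 9 passed the filter on low counts in each comparison.

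Ribosome-bound mRNA was measured in 34 RiboTag libraries of mice at postnatal day 60, in which Cre puts an HA tag on the ribosomal protein Rpl22 of the cells that express it. Cre came from the Pvalb driver (PV libraries) or the Sst driver (SST libraries, for somatostatin interneurons), and every group, controls included, carries the tagged allele and a Cre driver on a background labelled C57/BL6. In batch 1, PV:Cre/Ribotag mice received pentylenetetrazol (PTZ, a GABA receptor antagonist that excites networks widely; n = 4) or saline (n = 3). In batch 2, Sst:Cre/Ribotag mice received PTZ (n = 3) or saline (n = 4), and PV:Cre/Ribotag mice received saline (n = 2). In batch 3, PV:Cre/Ribotag mice went through contextual fear conditioning (CFC, foot shocks paired with a place; n = 3), PV:Cre/Nr4a1-f/f/Ribotag mice, labelled Nr4a1 cKO for the conditional loss of this nuclear receptor, stayed in the home cage (n = 3), and PV:Cre/Ribotag mice stayed in the home cage (n = 3). In batch 4, Sst:Cre/Ribotag mice went through CFC (n = 3) or stayed in the home cage (n = 3). Batch 5 held Sst:Cre/Nr4a1-f/f/Ribotag mice in the home cage (n = 3), so for SST the batch and the cKO genotype cannot be told apart, and these libraries are given as levels with no test. The sources used here do not give the time between treatment and tissue collection. In a pull-down from whole tissue fewer cells of a type and less RNA per cell cannot be told apart.

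Library totals ran from 4933110 to 27282912 counts, the 2 PV saline libraries of batch 2 being the shallowest with 6161764 and 4933110 counts. Cell labels were set beside the driver genes and marker lists. The lists were chosen with earlier results of these data known, so they describe the libraries and do not test the labels. Within batch 2, Pvalb was lower in SST than in PV saline libraries by a log2 value of -5.26 ± 0.26 (SE) and Sst higher by 5.39 ± 0.27. In batch 1, however, Pvalb stood at 40.1 to 128 CPM in PV PTZ libraries and at 15.7, 21.8 and 22.1 CPM in PV saline libraries. In the saline libraries that was below Sst at 61.8, 37.9 and 45.4 CPM, so the PV label of batch 1 rests on the other PV markers, whose list summed to between 5749 and 8677 CPM in saline libraries. In PTZ libraries the same list summed to 2271 to 6078 CPM. PTZ replicate 2, at 2271 CPM, lay below every SST library of the series, the lowest of which had 2699 CPM. For this library the PV list thus did not bear out the label. Its SST markers summed to 223 CPM, against 4793 CPM or more in SST libraries. Pvalb did not separate the lines across batches 3 to 5 either, with 87.7 to 477 CPM in SST libraries of batch 4 and 90.7 to 201 CPM in those of batch 5, against 145 to 188 CPM in PV CFC and PV home cage libraries of batch 3. Of the 3 PV libraries labelled Nr4a1 cKO, 2 had far more Pvalb than the rest of batch 3, at 1061 and 1352 CPM, and the third had 157 CPM. Sst did separate them, with 2993 to 6080 CPM in SST libraries of batches 4 and 5 and 109 to 449 CPM in PV libraries of batch 3, as did the list of PV markers, summed to 2967 to 3930 CPM in those SST libraries and 6732 to 8881 CPM in those PV libraries. Home cage PV libraries labelled Nr4a1 cKO had 6.73, 16.5 and 7.69 CPM of Nr4a1, against 5.08, 7.35 and 11.3 CPM in PV:Cre/Ribotag home cage libraries (log2 fold change 0.38, adjusted p = 0.592, edgeR). So a loss of Nr4a1 was not seen in these counts, which are over the whole gene. Which exons the deletion removes was not examined, so the counts do not settle the genotype.

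CPM throughout are counts scaled to a common library size with the TMM method within each table. Divided by the length of each gene's merged exons, Hapln4 was the most abundant of the 9 in each of the 11 groups, with group means from 42.5 CPM per kb in SST PTZ libraries to 234 CPM per kb in PV saline libraries of batch 2. Hapln4 encodes a link protein of the adult brain that holds brevican in the matrix. Vcan was low per length, from 0.0183 CPM per kb in PV libraries labelled Nr4a1 cKO to 3.46 CPM per kb in PV PTZ libraries. Levels across batches come from tables made separately and are set side by side here without a test. The range of Vcan was 1.97 to 86.9 CPM over batches 1 and 2, but 0 to 3.70 CPM over batches 3 to 5, so that the ranges overlap only narrowly. Ncan likewise ranged from 58.4 to 283 CPM in the first 2 batches and from 27.5 to 60.9 CPM in the other 3, and Tnr from 53.4 to 162 CPM and from 24.3 to 48.2 CPM. Within PV libraries Hapln1 stood at 97.1 to 118 CPM after saline in batch 1 and at 87.1 and 137 CPM in batch 2. In PV libraries of batch 3 it ranged from 17.2 to 32.0 CPM. Hapln4 and Adamts1 had no such step between batches, with 150.1 to 989 CPM and 4.53 to 33.2 CPM in batches 1 and 2, and 154 to 939.6 CPM and 3.43 to 26.0 CPM in batches 3 to 5.

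**Figure D1:**
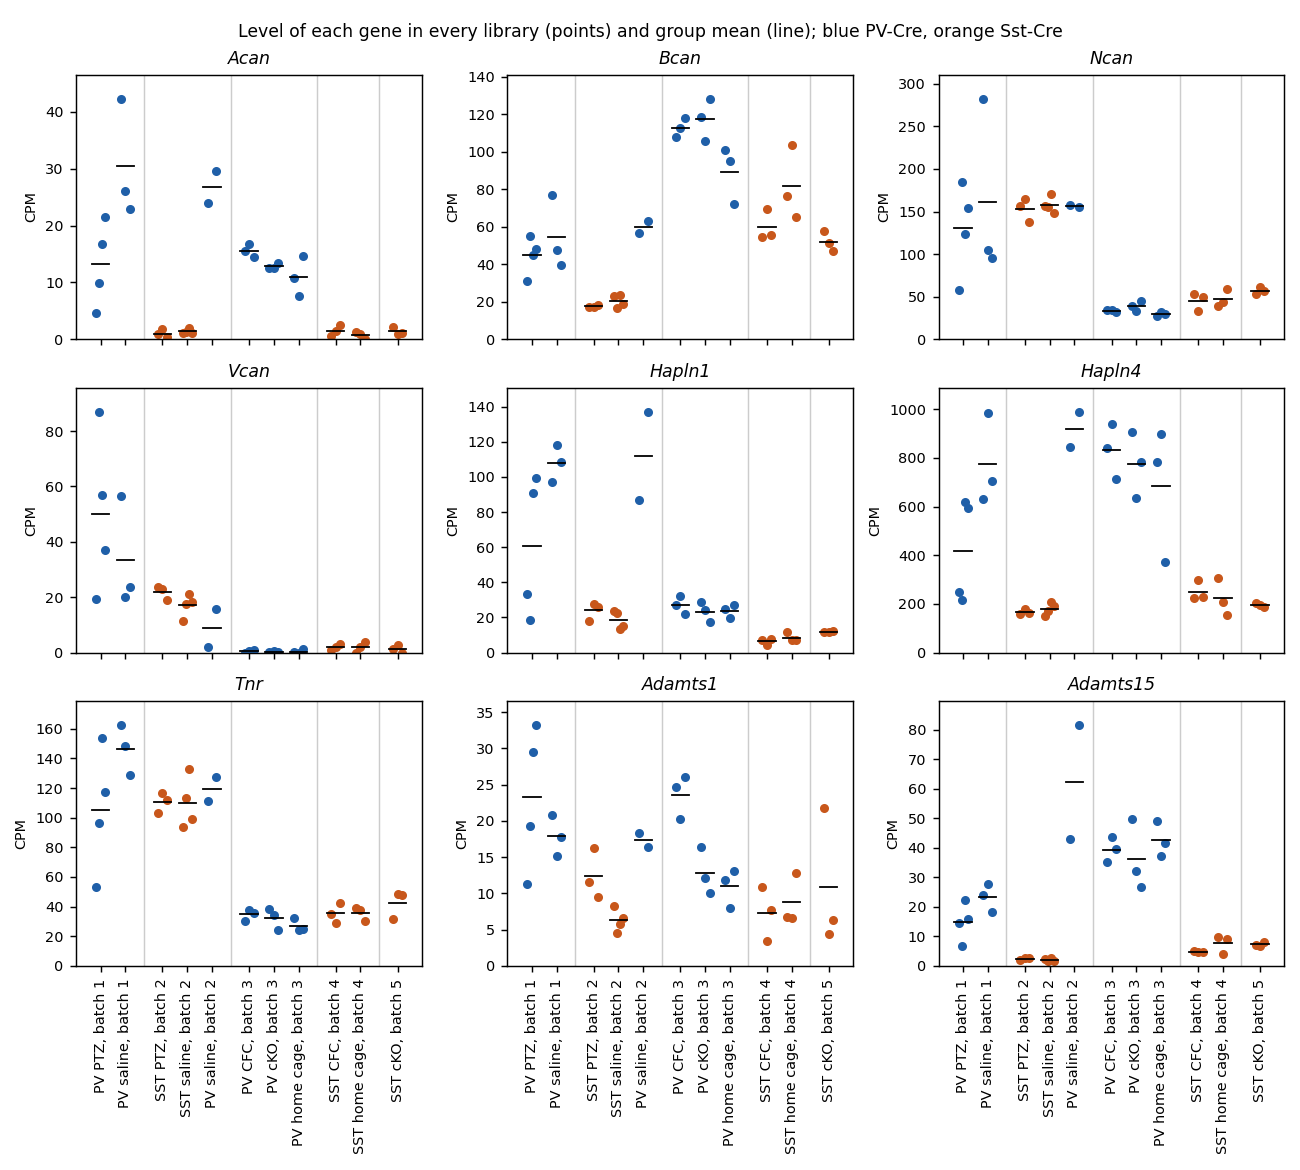
CPM of each of the 9 genes (vertical axis, linear, from 0) in each of the 34 libraries, with groups along the horizontal axis, points for libraries and a line at the group mean. Acan, Hapln4 and Adamts15 are low in every orange (SST) group; Vcan is at or near 0 in batch 3, between 0 and 1.16 CPM.

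Promoters were read from RefSeq (GRCm38.p6) from 250 bases before to 50 after each gene start, where 7 of the 9 genes matched by symbol; Hapln4 and Adamts15 were the others. RefSeq starts and the GENCODE gene spans given with the results differ for some genes, such as Acan and Hapln1. Shown are Acan and Hapln1, because these were among the most unequal between the lines, and Adamts1, because it had the smallest p of the 9 in both the SST PTZ and the PV CFC comparisons. Capitals mark TGACG, the core letters of the cyclic AMP response element, and TATAAA.
Acan, chr7:79052976-79053275, plus strand: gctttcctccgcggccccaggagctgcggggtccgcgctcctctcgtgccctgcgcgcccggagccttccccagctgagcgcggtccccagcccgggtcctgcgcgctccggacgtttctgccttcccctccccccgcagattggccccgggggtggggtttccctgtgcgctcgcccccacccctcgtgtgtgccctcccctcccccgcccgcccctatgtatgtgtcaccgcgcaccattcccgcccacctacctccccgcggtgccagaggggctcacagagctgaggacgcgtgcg
Hapln1, chr13:89540386-89540685, plus strand: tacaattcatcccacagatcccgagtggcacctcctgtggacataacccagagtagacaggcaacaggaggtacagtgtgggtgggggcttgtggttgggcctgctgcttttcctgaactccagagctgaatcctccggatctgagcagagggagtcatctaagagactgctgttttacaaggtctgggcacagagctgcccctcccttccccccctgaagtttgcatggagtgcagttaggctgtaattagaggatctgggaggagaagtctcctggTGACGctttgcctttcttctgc
Adamts1, chr16:85803064-85803363, minus strand: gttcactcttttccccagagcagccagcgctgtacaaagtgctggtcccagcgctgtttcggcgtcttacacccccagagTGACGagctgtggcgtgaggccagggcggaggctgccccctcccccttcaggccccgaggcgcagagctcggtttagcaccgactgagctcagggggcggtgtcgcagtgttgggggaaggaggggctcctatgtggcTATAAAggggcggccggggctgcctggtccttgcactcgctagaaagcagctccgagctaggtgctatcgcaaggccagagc
The Acan window was 74% GC with 31 CpG and held no match, the Hapln1 window 54.3% GC with 3 CpG, and the Adamts1 window 64.7% GC with 18 CpG. TGACG began at position 28 after the start in Hapln1 and at position -170 in Adamts1, and TATAAA at -32 in Adamts1. The same search, on both strands, found TGACG in 20.8% and TATAAA in 13.6% of 32851 promoters. No match was found in any of the 7 for AAAGGTCA (the NBRE, the element that Nr4a1 binds; in 1.51% of promoters), the full response element TGACGTCA (1.79%), TGANTCA (AP-1; 7.81%), CACGTG (E-box; 7.15%) or GCGNGGGCG (EGR; 5.55%). The full response element contains TGACG. A match is a description of letters, not of binding.

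Calls among the 9 genes came from one comparison, that between the Cre lines. In batch 2, the one batch that holds both, 6 of the 9 genes were lower in SST than in PV saline libraries and 0 were higher. They were the proteases Adamts15 and Adamts1, both link proteins, and the lecticans Acan and Bcan. Ncan, Tnr and Vcan did not pass the test. This contrast called 53.1% of the 11784 genes tested (58.7% at an unadjusted p under 0.05), and called 27.1% lower in SST, which stands beside any count of calls in it. All 6 were lower by a log2 value of 1 or more, which held for 16.4% of all genes tested. The median over the 9 genes was -1.54, against 0.01 over all genes tested. As the 9 genes were chosen with earlier results of these data known, these shares and medians describe them and do not test them. How many of all genes had groups without overlap was not counted in any comparison. A lack of overlap is therefore given only as a description of the libraries.

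Acan encodes aggrecan, the lectican that defines most cortical nets. The gene spans bases 79053483 to 79115099 of chromosome 7 in GRCm38, on the plus strand. SST saline libraries had 1.09, 1.37, 2.07 and 1.06 CPM of Acan, from 88 counts in all, against 23.9 and 29.5 CPM in PV saline libraries. All 4 SST libraries lay far below both PV libraries. The difference was 19.2-fold, a log2 value of -4.26 ± 0.44 (SE; adjusted p = 1.24e-05, edgeR quasi-likelihood test), the 25th most negative of 11784. Bcan, for brevican, a smaller lectican made by astrocytes as well as neurons (chromosome 3, 87987531 to 88000230, minus strand), had 22.9, 16.9, 23.5 and 18.7 CPM in SST and 56.7 and 62.8 CPM in PV saline libraries. Its log2 value was -1.54 ± 0.17 (adjusted p = 2.01e-05, edgeR), with no overlap between the groups.

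The other lecticans were not called. Ncan, for neurocan, had 157, 156, 171 and 149 CPM in SST saline libraries and 158 and 155 CPM in PV saline libraries, which overlap. Its log2 value was 0.01 with a 95% interval from -0.21 to 0.24 (adjusted p = 0.931, edgeR). Vcan, for versican, a lectican of diffuse matrix and of oligodendrocyte precursors, had 11.4, 17.4, 21.2 and 18.3 CPM in SST libraries, but 1.97 and 15.8 CPM in PV libraries, which differ from each other more than the SST libraries do. The Vcan log2 value of 1.00 ± 0.54 did not pass (adjusted p = 0.135, edgeR), and that result rests on single PV libraries: the log2 value was 3.12 (adjusted p = 3.58e-05) without PV saline replicate 2 and 0.10 without PV saline replicate 1. Limma voom gave 1.73 (adjusted p = 0.028).

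Both link proteins were lower in SST libraries. Hapln1, which stabilises the bond between lecticans and hyaluronan (chromosome 13), had 23.6, 22.4, 13.2 and 15.1 CPM in SST and 87.1 and 137 CPM in PV saline libraries. Hapln4 (chromosome 8) had 150.1, 170.0, 208 and 191 CPM in SST and 846 and 989 CPM in PV saline libraries. Neither gene's groups overlapped. Hapln1 was 6.02-fold lower, a log2 value of -2.59 ± 0.26 (adjusted p = 9.50e-06), and Hapln4 5.10-fold lower, at -2.35 ± 0.13 (adjusted p = 1.52e-07, both edgeR). Per length, Hapln4 was nevertheless the most abundant of the 9 genes in SST saline libraries. Tnr, the tenascin that cross-links lecticans, had 93.8, 113, 133 and 99.4 CPM in SST and 111 and 128 CPM in PV libraries, which overlap. Its log2 value was -0.12, with a 95% interval from -0.42 to 0.17 (adjusted p = 0.52, edgeR).

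The proteases showed the widest single difference. Adamts15, a secreted protease that cuts aggrecan and versican (chromosome 9, 30899155 to 30922452, minus strand), had 2.24, 1.68, 2.74 and 1.54 CPM in SST saline libraries and 42.8 and 81.4 CPM in PV saline libraries. Every SST library lay below both PV libraries, by 30.4-fold and a log2 value of -4.93 ± 0.30 (adjusted p = 2.32e-07, edgeR), the 14th most negative of 11784. Adamts1, a protease of aggrecan and versican (chromosome 16, 85793827 to 85803113, minus strand), had 8.22, 4.53, 5.85 and 6.60 CPM in SST and 18.3 and 16.5 CPM in PV libraries. Its log2 value was -1.46 ± 0.28 (adjusted p = 0.00108, edgeR), again without overlap. Each of these 6 genes stayed past the threshold, in the same direction, in edgeR's other scalings, in DESeq2, in limma voom and with any 1 library left out.

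**Figure D2:**
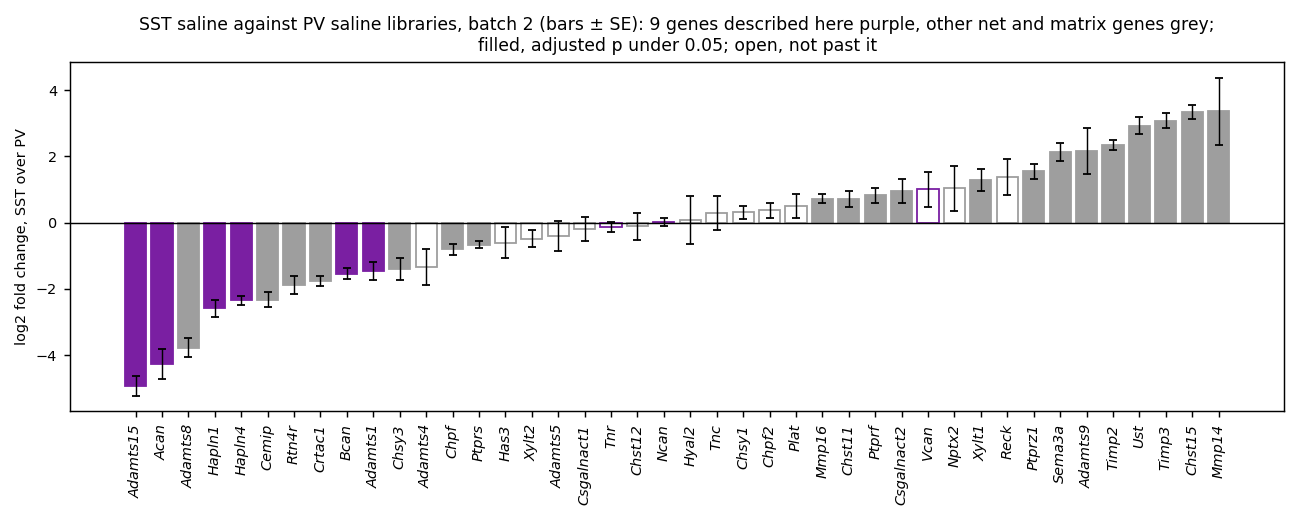
The edgeR log2 fold change of SST over PV saline libraries in batch 2 (bars, with SE) for the 9 genes (purple) and for 33 other net and matrix genes (grey), filled where the adjusted p is under 0.05. Cd44, with 0 counts in both PV libraries, is not drawn. Among the grey bars Adamts8 stands lowest at -3.78, and the purple bars of Adamts15 and Acan lie below it.

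The other genes of net assembly and breakdown were not one-sided. Of 48 listed genes, 34 were tested in batch 2, and 14 were higher and 7 lower in SST than in PV saline libraries. Chst15, a sulfotransferase that adds a second sulfate to chondroitin sulfate, had 44.5, 46.0, 45.9 and 45.8 CPM in SST libraries, against 3.78 and 5.34 CPM in PV libraries (log2 3.34 ± 0.21, adjusted p = 2.98e-07, edgeR). Timp2 and Timp3, tissue inhibitors of metalloproteases, were higher in SST by log2 values of 2.34 and 3.08, with adjusted p-values of 3.19e-07 and 1.12e-06 (edgeR). Adamts8, which lies 20109 bases from Adamts15 with 0 protein-coding genes between them, was lower in SST, with 1.57, 1.99, 2.00 and 1.12 CPM against 23.7 and 21.8 CPM in PV libraries (log2 -3.78 ± 0.29, adjusted p = 1.36e-06, edgeR). The other neighbouring pairs did not share a pattern so plainly. Ncan and Hapln4 lie 2222 bases apart, and Hapln4 was lower in SST while Ncan did not pass. Vcan and Hapln1 lie 43659 bases apart, and Hapln1 was lower while Vcan did not pass. Adamts5, next to Adamts1, had a log2 value of -0.40 that did not pass (adjusted p = 0.486, edgeR). The batch 2 table does not list Hapln2 or Hapln3, the neighbours of Bcan and Acan.

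Levels in batches 3 to 5, which hold 1 Cre line each, stood in the same order for Acan, Adamts15, Hapln1 and Hapln4. Acan ranged from 0 to 2.51 CPM in SST libraries of batches 4 and 5, against 7.69 to 16.7 CPM in PV libraries of batch 3. Adamts15 ranged from 4.20 to 9.92 CPM and from 6.65 to 8.24 CPM in SST libraries of batches 4 and 5, against 26.6 to 49.7 CPM in PV libraries of batch 3. Hapln4 had at most 307 CPM in those SST batches and at least 373 CPM in batch 3, and Hapln1 at most 12.5 CPM and at least 17.2 CPM. Bcan did not separate in this way, with 47.3 to 103 CPM in SST libraries of batches 4 and 5 and 72.2 to 128 CPM in PV libraries of batch 3. Nor did Adamts1, with 3.43 to 12.9 CPM in SST libraries of batch 4 and 4.46 to 21.7 CPM in those of batch 5. In PV libraries of batch 3 Adamts1 ranged from 8.03 to 26.0 CPM. Against PV libraries of batch 1, the SST libraries of batches 4 and 5 again lay lower for Acan (4.66 to 42.3 CPM in PV) and Hapln1 (18.7 to 118 CPM in PV). They overlapped with PV libraries of batch 1 for Hapln4 (214 to 984 CPM in PV) and Adamts15 (6.86 to 27.6 CPM in PV). For Hapln1 the SST libraries of batch 2, at 13.2 to 27.9 CPM, overlapped with the PV libraries of batch 3, at 17.2 to 32.0 CPM. Batch and Cre line cannot be told apart in these sets of libraries. In batch 2, 10 of 12 PV markers were called lower in SST than in PV saline libraries, against 27.1% of all genes tested. Of the SST markers 10 of 11 tested were called higher, in a contrast that called 53.1% of all genes. As the lists were chosen with earlier results of these data known, these counts do not test the labels. Astrocyte markers, whose cells also express Bcan and Ncan, summed to between 1576 and 1626 CPM in SST saline libraries and to 1448 and 1668 CPM in PV saline libraries. Of these 16 markers 2 were called higher and 4 lower in SST. Oligodendrocyte precursor markers, whose cells also express Vcan, summed to between 69.3 and 86.8 CPM in SST and to 34.9 and 41.9 CPM in PV saline libraries, with 3 of 10 called higher and 1 lower. Vascular and mural markers summed to between 31.0 and 59.4 CPM in SST and to 12.2 and 19.0 CPM in PV saline libraries, with 5 of 10 called higher, 0 lower and a median log2 value of 1.53. Their part in these results was not tested.

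PTZ gave no call among the 9 genes in PV libraries. This comparison called 0.0294% of 13598 genes, and 13.8% had an unadjusted p under 0.05. The 9 genes had 0 calls and 2 of 9 at an unadjusted p under 0.05, with 7 negative and 2 positive log2 values and a median of -0.50, against -0.01 over all genes. Acan had 4.66, 9.84, 16.7 and 21.4 CPM in PTZ libraries and 42.3, 26.1 and 22.9 CPM in saline libraries. Each PTZ library lay below each saline library, though by little at the nearest, and the log2 value of -1.23 ± 0.43 did not pass (adjusted p = 0.312, edgeR). Hapln4 had 249.9, 214, 619 and 594 CPM in PTZ libraries and 630.0, 984 and 705 CPM in saline libraries, again with no overlap and no call (log2 -0.90 ± 0.37, adjusted p = 0.341, edgeR). Hapln1 split the PTZ libraries, with 33.4 and 18.7 CPM in PTZ replicates 1 and 2, 90.6 and 99.4 CPM in PTZ replicates 3 and 4, and 97.1, 118 and 108 CPM in saline libraries. Hapln4 was low in the same 2 PTZ replicates. The list of PV markers was also lowest there, at 4324 and 2271 CPM in PTZ replicates 1 and 2. In PTZ replicates 3 and 4 it summed to 6078 and 5591 CPM. Among PTZ libraries Acan was also lowest in replicates 1 and 2, at 4.66 and 9.84 CPM, and so was Adamts1, at 11.2 and 19.3 CPM. The part of PV marker content in the Acan, Hapln1, Hapln4 and Adamts1 values was not tested.

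Marker lists also differed between the groups of this batch. The list of PV markers summed to 2271 to 6078 CPM in PTZ libraries and 5749 to 8677 CPM in saline libraries, and 10 of 12 had a negative log2 value, with a median of -0.74. All 12 GABAergic markers were negative, with a median of -0.48. The vascular list summed to 100.9 to 219 CPM in PTZ libraries and 41.0 to 88.7 CPM in saline libraries, and the microglial list to 63.2 to 535 CPM and 49.1 to 145 CPM. All 16 vascular and 12 microglial markers had a positive log2 value and none was at 0 counts in any of these libraries. Positive log2 values were also the more frequent ones among astrocyte markers (15 of 16, median 0.51), oligodendrocyte precursor markers (10 of 12, median 0.73), oligodendrocyte markers (10 of 12, median 0.57) and excitatory markers (12 of 14, median 0.56). None of these markers was called, and their part in the Acan and Hapln4 values was not tested. PV saline replicate 1 stood apart from the other saline libraries, with astrocyte markers at 5576 CPM against 1391 and 1488 CPM, and Ncan at 283 CPM against 104 and 95.3 CPM. Without it the log2 value of PTZ over saline was 0.37 for Ncan, against -0.32 with it, 0.029 for Bcan, against -0.30, and 1.17 for Vcan, against 0.57, and no member was called. The other members had log2 values between -0.85 (Hapln1) and 0.57 (Vcan). Adamts1 had 11.2, 19.3, 29.5 and 33.2 CPM in PTZ libraries and 20.9, 15.1 and 17.8 CPM in saline libraries, which overlap (log2 0.36, adjusted p = 0.604, edgeR). PTZ replicates 3 and 4 lay above every saline library for Adamts1, and replicates 1 and 2, those with the lowest PV markers, did not. Of 41 other net and matrix genes tested, 0 were called and 7 had an unadjusted p under 0.05. The 2 with the smallest p were Chpf, a chondroitin polymerising factor (log2 -0.65, adjusted p = 0.321), and Reck, a membrane-bound metalloprotease inhibitor (log2 0.97, adjusted p = 0.323, both edgeR).

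PTZ gave no call among the 9 genes in SST libraries either, where 0.144% of 11784 genes were called and 4.34% had an unadjusted p under 0.05. Adamts1 was the one member with an unadjusted p under 0.05. Its level was 11.6, 16.3 and 9.45 CPM in SST PTZ libraries, against 8.22, 4.53, 5.85 and 6.60 CPM in SST saline libraries. All 3 PTZ libraries lay above all 4 saline libraries, with a log2 value of 0.98 ± 0.25 and an adjusted p = 0.571 (edgeR), the 41st smallest p of 11784. Markers of vascular cells, which also express Adamts1, summed to 66.8 to 84.6 CPM in PTZ and 31.0 to 59.4 CPM in saline libraries, and 8 of the 10 tested had a positive log2 value, with a median of 0.70; their part in the Adamts1 value was not tested. The remaining 8 genes had log2 values between -0.46 (Acan, at means of 1.01 CPM in PTZ and 1.40 CPM in saline libraries) and 0.37 (Hapln1), and each had overlapping groups. Ncan was at -0.05, with a 95% interval from -0.24 to 0.15, and Tnr at 0.01, with an interval from -0.24 to 0.27. Of 34 other net and matrix genes tested, 0 were called and 0 had an unadjusted p under 0.05, and the 2 with the smallest p were Adamts9 (log2 0.75) and Chpf2 (log2 -0.33, adjusted p = 0.989 for both, edgeR).

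CFC gave no call among the 9 genes in PV libraries, and at Adamts1 that result depended on the settings. The comparison called 0 of 15150 genes in edgeR, with 18.7% at an unadjusted p under 0.05, while DESeq2 called 745. Of the 9 genes, 1 had an unadjusted p under 0.05. Adamts1 had 24.6, 20.2 and 26.0 CPM in PV CFC libraries, against 11.9, 8.03 and 13.1 CPM in PV home cage libraries. Each CFC library lay above each home cage library. The log2 value was 1.08 ± 0.25, a 2.11-fold difference, with an adjusted p = 0.186 (edgeR). It passed with no filter on low counts (log2 1.11, adjusted p = 0.00387) and without PV home cage replicate 1 (log2 1.13, adjusted p = 0.0374), where 1481 genes were called. Vascular markers summed to 60.2 to 201 CPM in PV CFC and 155 to 192 CPM in PV home cage libraries, and 11 of 16 had a negative log2 value, with a median of -0.34.

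The net components differed by less than Adamts1. Bcan had 108, 113 and 118 CPM in PV CFC libraries and 101, 94.8 and 72.2 CPM in PV home cage libraries, with no overlap but no call (log2 0.31 ± 0.14, adjusted p = 0.271, edgeR). Ncan, at 34.2, 34.4 and 32.3 CPM in CFC and 27.5, 32.0 and 30.1 CPM in home cage libraries, also did not overlap (log2 0.14, adjusted p = 0.649, edgeR). Astrocyte markers summed to 866 to 883 CPM in CFC and 717 to 882 CPM in home cage libraries. Of these markers 13 of 16 had a positive log2 value, with a median of 0.22. Oligodendrocyte markers were positive in 10 of 12, with a median of 0.30. The part of either list in the Bcan and Ncan values was not tested. Acan overlapped, with 15.5, 16.7 and 14.5 CPM in CFC and 10.7, 7.69 and 14.6 CPM in home cage libraries. The 9 genes had 8 positive and 1 negative log2 values, the negative one being Adamts15 at -0.15, with a median of 0.31 against 0.02 over all genes. The third PV home cage replicate, with the fewest counts in batch 3 (10096035), had the lowest Hapln4 of the PV batch 3 libraries at 373 CPM. Without it the Hapln4 log2 value was -0.03, against 0.26 with it. Of 40 other net and matrix genes tested, 0 were called and 5 had an unadjusted p under 0.05. Mmp2, a gelatinase, had 4, 22 and 8 counts in PV CFC libraries and 0 counts in all 3 home cage libraries, and Ptprs, a receptor for chondroitin sulfate, had a log2 value of 0.54 (adjusted p = 0.186, edgeR).

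**Figure D3:**
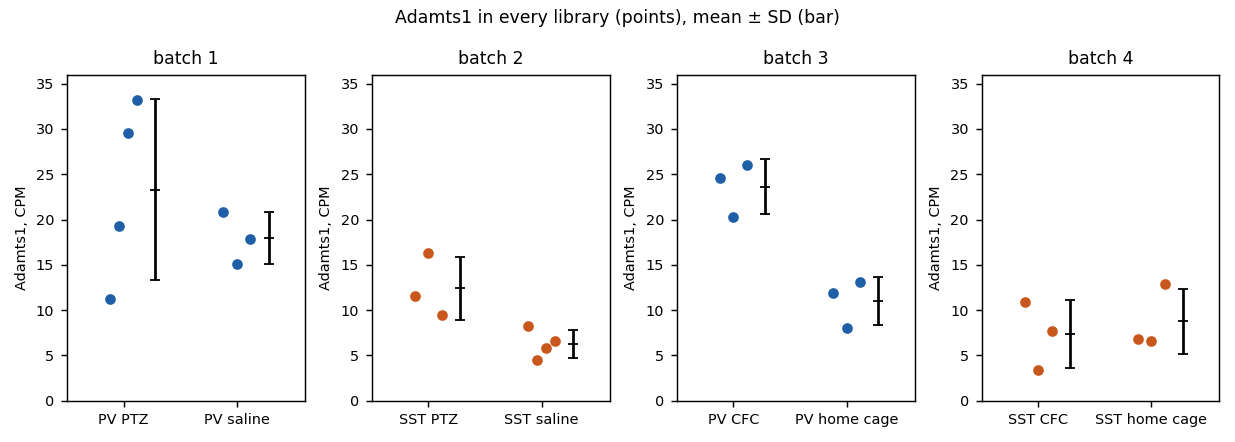
Adamts1 in CPM (vertical axis, from 0, same scale in each panel) in each library of the 4 stimulus comparisons, with the mean and SD beside the points. CFC libraries lie at 20.2 to 26.0 CPM in PV, above PV home cage at 8.03 to 13.1 CPM, while SST CFC and SST home cage overlap.

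In SST libraries CFC gave no call among the 9 genes, with 0.0411% of 14614 genes called and 5.57% at an unadjusted p under 0.05. Bcan was the one member at an unadjusted p under 0.05, with 54.8, 69.5 and 55.7 CPM in SST CFC libraries and 76.1, 103 and 64.9 CPM in SST home cage libraries, which overlap (log2 -0.44 ± 0.19, adjusted p = 0.887, edgeR). Adamts1 had 10.9, 3.43 and 7.70 CPM in SST CFC and 6.76, 6.63 and 12.9 CPM in SST home cage libraries, and its groups overlapped (log2 -0.25 ± 0.47). Acan reached 2.51 CPM at most and Vcan 3.70 CPM, from 80 and 108 counts summed over CFC libraries and 38 and 108 over home cage libraries, and neither was called (edgeR). Astrocyte markers, whose cells also express Bcan, summed to 593 to 724 CPM in SST CFC and 771 to 945 CPM in SST home cage libraries, with 15 of 16 negative, and vascular markers to 81.1 to 117 CPM and 175 to 952 CPM. All 16 vascular markers had a negative log2 value with a median of -2.60, and 1 of them was called; their part in the Bcan and Adamts1 values was not tested. Of 42 other net and matrix genes tested, 0 were called and 3 had an unadjusted p under 0.05. Chst15 (log2 -0.55, adjusted p = 0.525) and Ptprz1, a phosphatase that binds chondroitin sulfate (log2 -0.96, adjusted p = 0.697, both edgeR), had the smallest p.

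The difference between the lines' responses was tested as a contrast of contrasts. For PTZ, edgeR called 0 of 11743 genes (DESeq2 1) and 5.13% had an unadjusted p under 0.05. Among the 9 genes 0 were called and 0 had an unadjusted p under 0.05, and 8 had a more positive response in SST than in PV libraries. Their median difference was 0.57, against -0.04 over all genes. All 12 GABAergic markers (median 0.50) and 9 of 12 PV markers (median 0.41) were positive too, while 14 of 16 astrocyte markers were negative. The part of cell content in these differences was not tested. Of the 9 genes Hapln1 had the smallest p, at a difference of 1.19 ± 0.57 (adjusted p = 0.82, edgeR). For CFC, edgeR called 0 of 16081 genes (DESeq2 327) and 15.2% had an unadjusted p under 0.05, among them 2 of the 9 genes. Here 8 of the 9 differences were negative, the response in SST minus that in PV. Their median was -0.28, against -0.01 over all genes. Negative differences were also the more frequent among other net and matrix genes (34 of 43), astrocyte markers (15 of 16) and vascular markers (16 of 16). Of the PV markers 5 of 12 were negative, and of the SST markers 2 of 12. The part of cell content was again not tested. Bcan differed by -0.69 ± 0.23 (adjusted p = 0.218) and Adamts1 by -1.27 ± 0.51 (adjusted p = 0.263, both edgeR). So a stronger Adamts1 response to CFC in PV than in SST libraries was not shown by this test. The lines were measured in separate batches, so batch and line cannot be told apart in these differences. DESeq2 called 0 of the 9 genes in these 2 differences and in the 5 comparisons of stimulus or genotype.

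**Figure D4:**
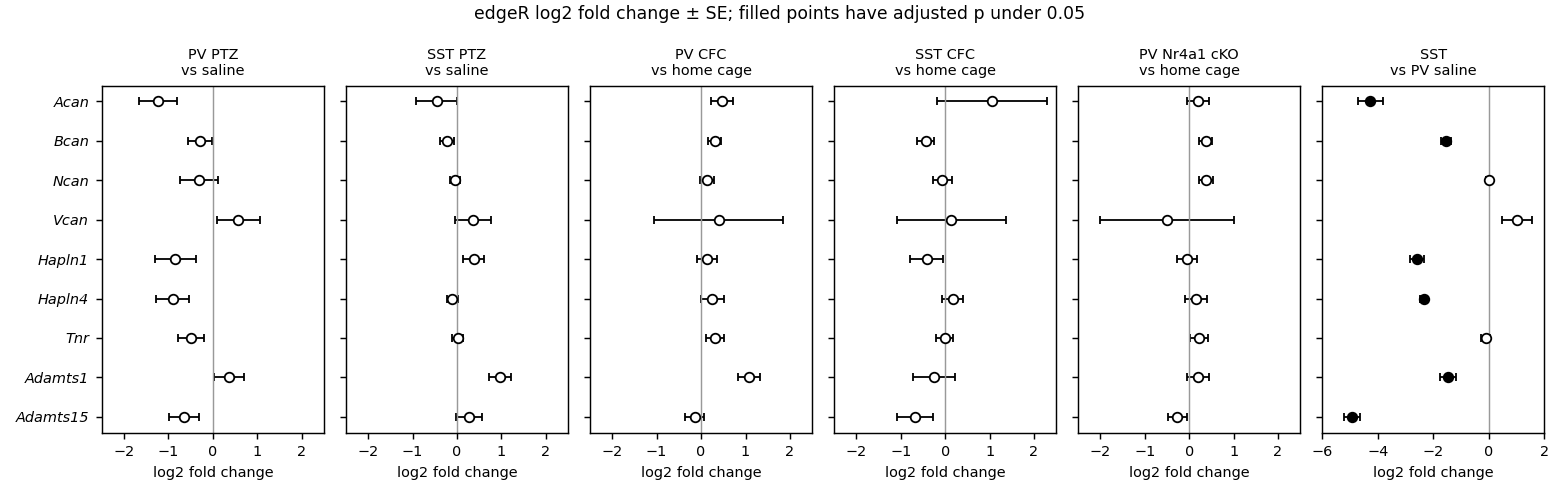
edgeR log2 fold changes (horizontal axis, with SE) of the 9 genes in the 6 comparisons within batches, filled where the adjusted p is under 0.05. The panel of SST over PV saline libraries has a wider axis and holds all 6 filled points.

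In PV libraries labelled Nr4a1 cKO, 0 of 9 genes were called against PV home cage libraries and 2 had an unadjusted p under 0.05, with 0.139% of 15150 genes called and 17.8% at an unadjusted p under 0.05. Bcan had 119, 106 and 128 CPM in cKO libraries and 101, 94.8 and 72.2 CPM in home cage libraries, and Ncan 39.6, 33.7 and 45.1 CPM in cKO and 27.5, 32.0 and 30.1 CPM in home cage libraries. Neither gene's groups overlapped, and neither passed: Bcan had a log2 value of 0.37 ± 0.14 (adjusted p = 0.215) and Ncan of 0.37 ± 0.16 (adjusted p = 0.248, both edgeR). These values share their home cage libraries with the CFC values above. Astrocyte markers summed to 838 to 1135 CPM in cKO and 717 to 882 CPM in home cage libraries, with 15 of 16 positive and a median of 0.46. Oligodendrocyte markers were positive in 12 of 12, with a median of 0.98; their part in the Bcan and Ncan values was not tested. The proteases overlapped, Adamts1 at 16.4, 12.2 and 9.99 CPM and Adamts15 at 49.7, 32.1 and 26.6 CPM in cKO libraries, against 11.9, 8.03 and 13.1 CPM and 49.2, 37.4 and 41.7 CPM in home cage libraries. Of 40 other net and matrix genes tested, 0 were called and 9 had an unadjusted p under 0.05. Sema3a, a guidance protein that binds the chondroitin sulfate of nets, had the smallest p (log2 1.09 ± 0.25, adjusted p = 0.123, edgeR). Mmp2 had 23, 3 and 10 counts in cKO libraries and 0 in all 3 home cage libraries.

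In the SST libraries labelled Nr4a1 cKO of batch 5, Acan had 2.25, 1.01 and 1.11 CPM, Hapln4 202, 196 and 189 CPM, and Adamts15 7.18, 6.65 and 8.24 CPM. Adamts1 had 21.7, 4.46 and 6.31 CPM. The vascular list summed to 1915 CPM in the first of these libraries and to 76.4 and 78.7 CPM in the other two. The library with high Adamts1 was the one with high vascular markers, and their part in its Adamts1 value was not tested.

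Across the 34 libraries, with each gene centred within its batch, 5 of the genes had positive correlations with each other. Pearson's r of log2(CPM + 1) between Acan, Bcan, Hapln1, Hapln4 and Adamts15 was between 0.58 (Bcan and Hapln1) and 0.86 (Hapln1 and Adamts15). Spearman's rho for the same pairs was lower, between 0.35 (Bcan and Hapln1) and 0.83 (Hapln1 and Adamts15). Only batch 2 holds both lines, so a difference between the lines enters these values through that batch. Its weight in them was not measured, and the values are given as a description. Vcan had negative r with each of those 5, between -0.51 (Hapln4) and -0.26 (Bcan). Among 10148 genes compared, those most like Acan included Syt2 (r = 0.92), a synaptic calcium sensor, and Parm1 (0.90). Those most like Hapln4 included Paqr4 (0.94) and Gabrd (0.93). Adamts15 was most like Ccdc184, Kcnip2 and Nefh (all 0.93), and Hapln1 like Parm1, Tmem127 and Kcna1 (all 0.89). Bcan was most like Aldoc (0.88), a gene on the astrocyte list that is also expressed by neurons, then Cdh20 (0.87) and Scn4b (0.87). Ncan stood closest to Pcsk2 (0.86) and Vcan to Ftx (0.82). Adamts1 had no close partner, with Bms1 at 0.64, Myo1e at 0.62 and Ier2, an immediate early gene, at 0.62.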

How the data were processed

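Ribosome-bound mRNA of PV and SST RiboTag libraries was sequenced in 5 batches. The submitters' processing notes name STAR 2.5.2a, HTSeq 0.11.0, cutadapt 1.18 and DESeq2, and the builds mm10 and GRCm39, without roles; the sources used here do not state strandedness. The authors deposited expected counts for batch 1 (11.3% not whole; rounded here) and raw counts for batches 2 to 5. No value column was left unused (0).

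Groups came from sample titles and, for the Nr4a1 cKO groups, from the genotype labels. Each comparison was fitted on its whole table in edgeR 4.0.16 (R 4.3.3; robust quasi-likelihood, two-sided, TMM, filterByExpr, all libraries of a table sharing the spread; Benjamini-Hochberg at 0.05), with SE from the F statistic. Intervals are log2 value ± 1.96 SE. Differences of responses joined tables by gene. Alternatives were other scalings, no filter, DESeq2 1.42.0, limma 3.58.1, fewer libraries, a replicate block and leaving out each library. Fits were also run on counts simulated without shifts in cell content. The outcome is not given here and does not show how the fits behave on these libraries. No label ties replicates to separate animals, and p-values then reflect only the spread of these libraries, which may be technical; among 37 pairs, 0 were identical. Positions are from GENCODE M21 (GRCm38), whose IDs covered 99.6% of the batch 3 table.

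Members and lists were chosen with earlier results of these data known. Genes named are the 9 members, Pvalb, Sst, Nr4a1, genomic neighbours, the 3 genes most like each member at a mean of 5 CPM or more (in part), and, from the other net and matrix genes, up to 4 called or else 2 of smallest p.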

Additional observations from a re-analysis of the deposited data

How the results depend on the processing

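The 6 genes called lower in SST than in PV saline libraries kept direction and call under every alternative run, also with each library left out in turn. Members called went to 1 (Adamts1) in PV CFC against home cage with no filter on low counts, and ranged from 0 to 1 with 1 library left out. Elsewhere the count of members called was the same but for Vcan in SST against PV saline, given above. Tnr was at -0.021 under the replicate block in SST PTZ and at 0.0023 with limma voom in SST CFC. Vcan was at 0.99 (voom) and 0.35 (block) in PV Nr4a1 cKO, at 0.23 (block) for the PTZ difference, and at 0.63 (voom) and 0.64 (block) for the CFC difference. Some log2 values changed sign with 1 library left out. In PV PTZ against saline, Bcan ran from -0.47 to 0.029, and Ncan from -0.57 to 0.37. In SST PTZ against saline, Ncan ran from -0.10 to 0.026, and Tnr from -0.056 to 0.12. In SST against PV saline, Ncan ran from -0.026 to 0.041. In PV CFC against home cage, Vcan ran from -0.54 to 3.90, and Hapln4 from -0.033 to 0.50. In PV Nr4a1 cKO against home cage, Acan ran from -0.013 to 0.45, Vcan from -1.15 to 3.01, Hapln1 from -0.23 to 0.13, Hapln4 from -0.14 to 0.40, and Adamts1 from -0.0085 to 0.36. In SST CFC against home cage, Ncan ran from -0.19 to 0.12, Vcan from -0.44 to 1.08, Hapln4 from -0.043 to 0.47, Tnr from -0.17 to 0.12, and Adamts1 from -0.65 to 0.13. In the SST minus PV response to PTZ, Bcan ran from -0.30 to 0.26, Ncan from -0.48 to 0.52, and Vcan from -0.88 to 0.18. In the SST minus PV response to CFC, Ncan ran from -0.28 to 0.038, Vcan from -3.69 to 0.81, and Hapln4 from -0.30 to 0.29.

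Counts over all genes depended on the tool. DESeq2 called 215 genes in PV PTZ against 4 in edgeR, 38 against 17 in SST PTZ, 745 against 0 in PV CFC, 669 against 21 in PV cKO and 102 against 6 in SST CFC. With no filter, 1032, 1072, 11 and 708 genes were called in PV CFC, PV cKO, SST CFC and the CFC difference. Limma voom called 27 in SST PTZ and 1 in PV CFC. Fitting only the compared groups called 38 in SST PTZ, 2 in PV CFC and 10 in PV cKO; it is the same fit in PV PTZ and SST CFC. Leaving out 1 library gave 0 to 14 genes in PV PTZ, 0 to 1481 in PV CFC, 7 to 1224 in PV cKO, 1 to 37 in SST CFC and 0 to 881 in the CFC difference, with the highest counts of batch 3 without PV home cage replicate 1. The cause was not tested. Deviations of same-numbered libraries had correlations from -0.23 to 0.35 over the comparisons, and those of differently numbered ones from -0.33 to 0.40. In groups of 2 to 4 libraries these values cannot decide whether the numbers pair the libraries. The replicate block gave 2 genes in PV PTZ, 8 in SST PTZ, 2 in PV CFC and 2 in SST CFC. Group means moved by less than 1 SD in 99 of 99 cases under CPM over raw totals. With 2 to 4 libraries a group, members under about 2 CPM (Acan in SST, Vcan in batches 3 to 5) had too few counts for a small difference to be seen.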
